A study of Homo sapiens with 21 samples.

Results

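The 36 genes described here belong to the hypoxia-inducible factor (HIF) pathway. They are 3 HIF subunits, 5 genes whose products sense oxygen or degrade the subunits, and 28 genes that HIF is known to activate outside glycolysis. They were chosen by symbol from a list of known pathway genes, not by a rule on their values. Earlier results of these data were known when they were chosen. All 36 were among the 16553 genes of the count table, and all 36 were among the 15969 genes that passed the filter on low counts. RNA came from AU565, an established line of human breast cancer cells that carries extra copies of ERBB2, and was sequenced in 21 libraries, 3 for each of 7 groups. Trastuzumab, a therapeutic antibody against the ERBB2 product HER2, was the only agent, and every group was the same cell line. There were 3 groups of flat monolayers: untreated, acutely exposed (20 µg/ml of trastuzumab for 24 h) and primed (the same exposure, then a further 96 h). The other 4 groups were 3D aggregates grown for 96 h with 5% matrigel. Untreated aggregates never met the antibody, primed aggregates came from cells exposed as a monolayer to 20 µg/ml for 24 h, treated aggregates received 50 µg/ml for 24 h after the 96 h, and primed and treated aggregates received both exposures. Treated aggregates, with or without priming, were therefore 24 h older than the others. No oxygen level is given in the sources used here, and nothing says that the 3 replicates of a group were separate cultures, so p-values measure the spread between these samples, which may be technical.

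HIF is a pair of proteins, an oxygen-labile alpha subunit and the constant beta subunit ARNT. In oxygen, prolyl hydroxylases mark the alpha subunit and the VHL ubiquitin ligase sends it to the proteasome. When oxygen is short, or when growth factor signalling through receptors such as HER2 raises its synthesis, the alpha subunit accumulates and HIF switches on genes for blood vessel growth, pH control, mitophagy and collagen processing. The control lies mainly on the protein, which RNA counts do not show. Dense 3D cultures of tumour cells are a classical setting in which oxygen falls with distance from the surface.

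Levels below are read counts scaled to each library's effective size (CPM, counts per 1e6), and a change is a log2 fold change with its standard error (SE), from edgeR's quasi-likelihood test. A gene is called, and said to rise or fall, where the p-value adjusted over all genes tested was under 0.05. Total counts were 15005070 to 26921113 per library. Epithelial markers were present in part: EPCAM stood at 120.0 to 292 CPM and KRT8, KRT18 and KRT19 at 902 to 3920 CPM in all 21 libraries, but CDH1, a defining epithelial cadherin, was at 0.0449 to 3.05 CPM. Transcripts of other tissues split the libraries. In 12 libraries (monolayers that were untreated or acutely exposed, aggregates that were untreated or primed) TYRP1 and POSTN were at 5.7 to 33.1 CPM, and they were at 0 to 0.256 CPM in the other 9 libraries, where SNAP25 was at 4.36 to 17.3 CPM. MYH7, a muscle myosin, exceeded 1 CPM in 6 libraries, at up to 87.4 CPM, namely untreated monolayer replicates 1 and 2, acutely exposed monolayer replicates 2 and 3, and untreated aggregate replicates 1 and 2. Summed over marker lists, striated muscle markers (7 of 8 in the table) stood at 130.0 to 303 CPM in untreated monolayers, 207 to 236 CPM in untreated aggregates and 88.6 to 184 CPM in the other 5 groups. Melanocyte markers (6 of 6) stood at 16.2 to 107 CPM in the 12 libraries and 1.64 to 4.2 CPM in the 9, fibroblast markers (6 of 7) at 22.1 to 47.8 CPM and 5.04 to 11.1 CPM, kidney markers (6 of 6) at 0.153 to 0.999 CPM and 4.4 to 41.5 CPM. Brain markers (5 of 6) stood at 29.4 to 41.1 CPM in both groups of treated aggregates and 6.18 to 19.5 CPM elsewhere. Endothelium markers (4 of 6) stood at 59.1 to 67.4 CPM in primed monolayers and 8.51 to 18.3 CPM elsewhere. The melanocyte gene TYR was at 0 in primed monolayers and in both groups of treated aggregates, and MYH7 had a mean of 0 in primed monolayers. A comparison that crosses the 12 and the 9 libraries cannot be told apart from that split, and such comparisons are marked below. The part of these transcripts in the results was not tested beyond leaving out the 6 libraries with MYH7.

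Promoter sequences are shown because members were listed as known HIF pathway genes and many of them differed between monolayers and aggregates. No relation between promoter sequence and change was tested. The HIF pair binds the short sequences ACGTG and GCGTG, called hypoxia response elements. RefSeq (GRCh38.p14) gave 40 promoters for 31 of the 36 genes, with no entry for BNIP3L, VHL, VEGFA, NDRG1 and ZNF395. In the 250 bases before the start, on either strand, 31 of those 40 promoters (77.5%) held at least 1 of the 5-letter sequences, against 43.2% of all 35116 promoters. ACGTG alone was in 21 of the 40 (52.5%) and in 18.5% of all promoters. The palindrome CACGTG, which carries ACGTG on both strands and is also the E-box read by other factors, was in 9 of the 40 (22.5%) and in 6.34% of all. Such a match is a string of letters, not a measured binding site, and a list of known HIF genes was not chosen independently of such sequences. Below are the 250 bases before the start, read 5′ to 3′ on the gene's strand, of the 3 targets that differed most between untreated aggregates and monolayers and of the oxygen sensor that differed most, EGLN3. Capitals mark ACGTG or GCGTG on either strand.
ANKRD37, chr4:185396591-185396840, plus strand: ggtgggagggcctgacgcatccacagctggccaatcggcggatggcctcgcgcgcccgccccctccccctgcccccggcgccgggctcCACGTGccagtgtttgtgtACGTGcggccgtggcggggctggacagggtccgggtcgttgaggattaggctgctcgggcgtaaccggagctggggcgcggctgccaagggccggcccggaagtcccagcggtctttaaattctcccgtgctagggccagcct
PPFIA4, chr1:203026241-203026490, plus strand: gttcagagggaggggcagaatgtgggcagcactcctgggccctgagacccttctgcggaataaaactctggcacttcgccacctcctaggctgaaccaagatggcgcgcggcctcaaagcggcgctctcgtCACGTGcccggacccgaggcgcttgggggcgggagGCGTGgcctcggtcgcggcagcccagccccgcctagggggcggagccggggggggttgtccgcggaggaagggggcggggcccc
CA9, chr9:35673678-35673927, plus strand: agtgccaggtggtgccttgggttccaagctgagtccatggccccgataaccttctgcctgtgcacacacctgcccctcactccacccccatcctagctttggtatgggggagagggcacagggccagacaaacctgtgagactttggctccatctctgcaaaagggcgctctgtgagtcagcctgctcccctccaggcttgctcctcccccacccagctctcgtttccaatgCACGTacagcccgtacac
EGLN3, chr14:33951075-33951324, minus strand: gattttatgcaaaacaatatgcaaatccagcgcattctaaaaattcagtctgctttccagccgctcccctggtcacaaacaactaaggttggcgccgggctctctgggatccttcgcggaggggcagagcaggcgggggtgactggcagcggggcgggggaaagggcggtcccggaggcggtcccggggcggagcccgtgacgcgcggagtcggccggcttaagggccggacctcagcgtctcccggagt
The ANKRD37 promoter held 1 CACGTG, 162 to 157 bases before the start, and a further ACGTG 143 to 139 bases before it. PPFIA4 had 1 CACGTG, 119 to 114 bases before the start, and a GCGTG 84 to 80 bases before it. The single match of CA9 lay 18 to 14 bases before the start, on the opposite strand. EGLN3 had no match in this window, as was so for 6 of the 31 genes.

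**Figure D1:**
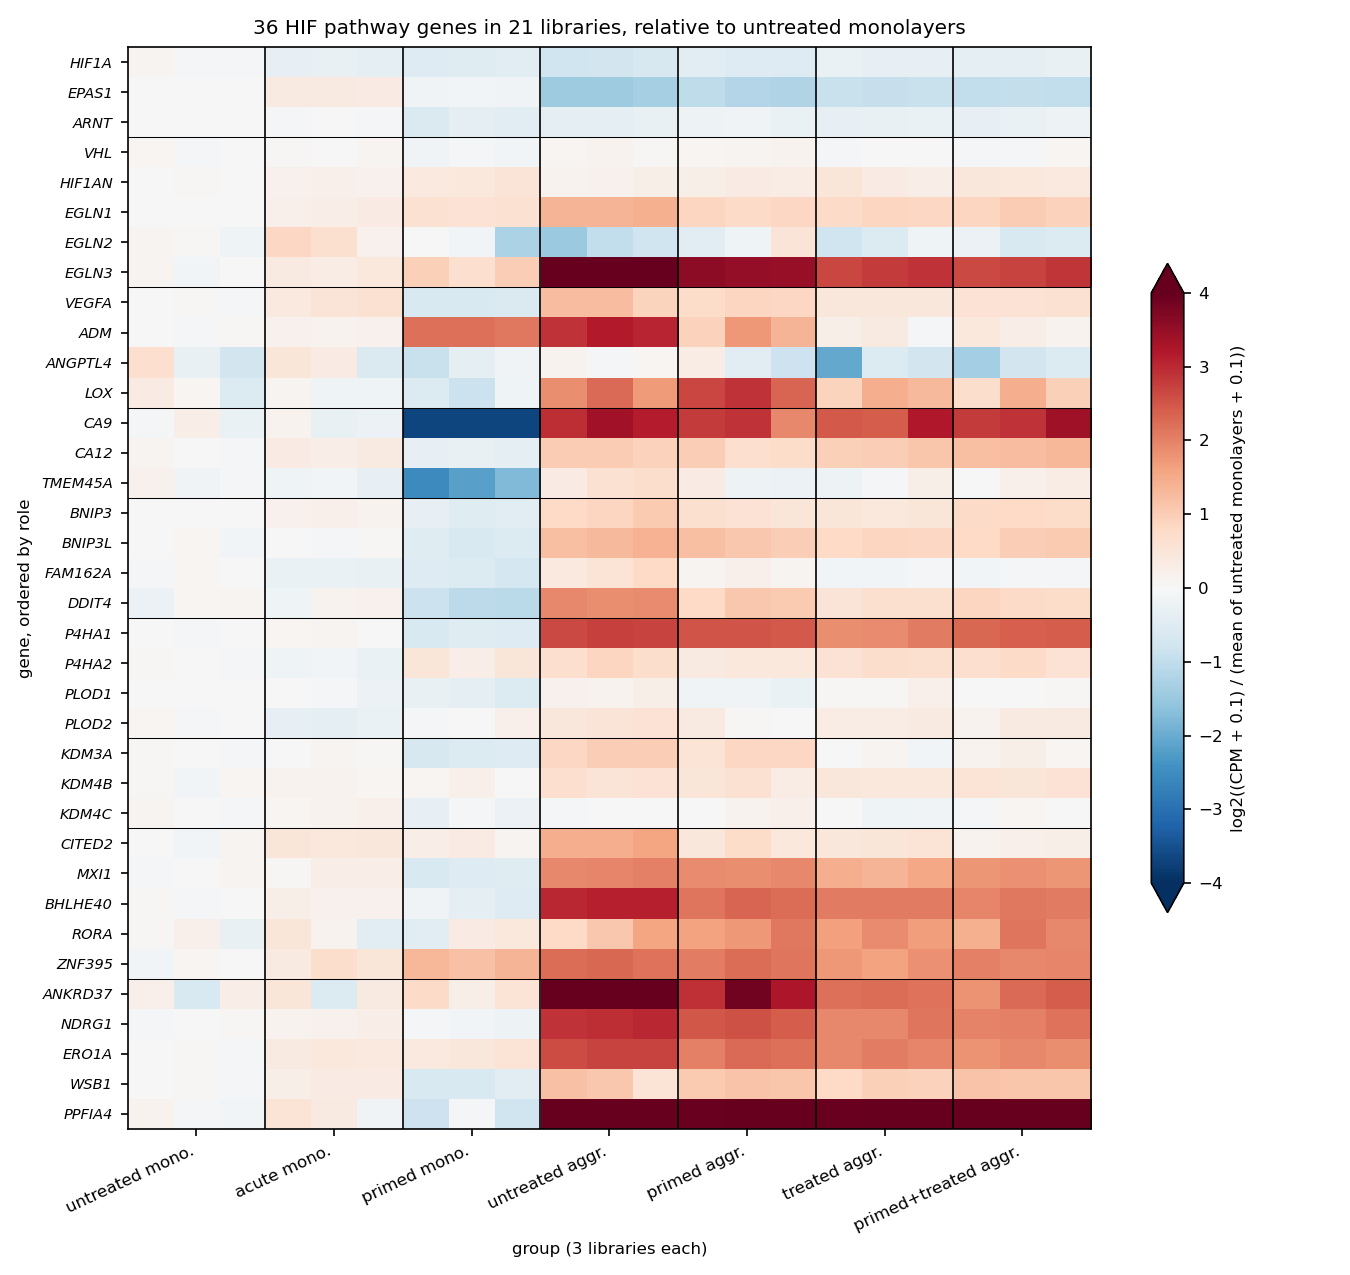
Level of each of the 36 genes (rows, ordered by role) in each of the 21 libraries (columns, grouped by condition), as log2 of CPM plus 0.1 over the mean of the untreated monolayers plus 0.1. Red is above and blue below untreated monolayers. The lower rows, which hold the targets, are mostly red in the 4 aggregate groups, while HIF1A and EPAS1 at the top are blue there.

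Untreated aggregates were set against untreated monolayers to see how the pathway differed in 3D culture. Aggregates also had 96 h of incubation and 5% matrigel, and the labels give no incubation time and no matrigel for untreated monolayers, so growth in 3D cannot be told apart from culture time and matrigel. Of the 28 targets 26 rose and none fell, while all 3 HIF subunits fell. Over the 36 genes 29 rose and 4 fell, with a median log2 change of 1.06 against 0.01 over all genes tested. Of all 15969 genes, 32.9% rose and 31.1% fell, so the rises among the members were more frequent than in the background and the falls less so. The untreated aggregates also held a larger share of mitochondrial ribosomal RNA (2.5 to 2.75% of counts against 0.925 to 1.14% in untreated monolayers), and summed melanocyte markers were 16.2 to 22.2 CPM against 48.3 to 107 CPM. Their part in the result was not tested. In such bulk RNA, fewer cells expressing a gene and less RNA per cell cannot be told apart. Without the 6 libraries with MYH7, which leaves 1 library against 1 and takes the spread from the other groups, 27 members rose and 3 fell, and the calls lost were PLOD1 (0.22), HIF1AN (0.25) and EGLN2 (-0.68).

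HIF1A encodes the alpha subunit of HIF-1 (Entrez 3091, chromosome 14, 61695513 to 61748258 in GRCh38.p14). Its level was 233, 208 and 209 CPM in untreated monolayers and 126, 131 and 140.3 CPM in untreated aggregates. The groups did not overlap, and the log2 change was -0.71 ± 0.052 (± SE, 3 against 3 libraries, edgeR adjusted p = 3.78e-14). EPAS1, the alpha subunit of HIF-2 (Entrez 2034, chromosome 2, 46297407 to 46386697), was at 574, 566 and 564 CPM in monolayers and 211, 211 and 226 CPM in aggregates. Its log2 change of -1.39 ± 0.05 (edgeR adjusted p = 1.4e-22) left the aggregates at well under the monolayer level. ARNT, the shared beta subunit, went from 100.5, 101 and 99.2 CPM to 75.8, 76.5 and 81.7 CPM, a log2 change of -0.36 ± 0.054. HIF1A overlaps 3 antisense genes in RefSeq, 15 of the 36 members overlap some other gene (LOX with SRFBP1, BNIP3 with PPP2R2D, ANKRD37 with LRP2BP and UFSP2, for example), and the strand setting of the counting is not given in the sources used here, so reads of the overlapping genes may be included and these values are uncertain to that extent.

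The oxygen sensors moved in different directions. EGLN3, a prolyl hydroxylase that is itself a HIF target (Entrez 112399, chromosome 14, 33924227 to 33951074), was at 11.1, 9.48 and 10.4 CPM in monolayers and 215, 219.9 and 246 CPM in aggregates. That is a 22.1-fold rise (log2 4.47 ± 0.082, edgeR adjusted p = 2.54e-30). EGLN1, the main prolyl hydroxylase in most cells, was at 50.2, 49.8 and 49.5 CPM and 128, 127 and 134 CPM, a rise of 1.38 ± 0.055. HIF1AN, the asparagine hydroxylase that blocks coactivator binding, was at 39, 41 and 39.3 CPM and 44.1, 45 and 46.7 CPM, a small rise of 0.18 ± 0.062. Levels of VHL were 71.5, 65.7 and 66.7 CPM and 72.5, 74.4 and 70.1 CPM, overlapping between the groups (log2 0.091 ± 0.056, not called). EGLN2, the third prolyl hydroxylase, was at 1.63, 1.56 and 1.34 CPM and 0.47, 0.715 and 0.832 CPM, a log2 change of -1.16 ± 0.35 that passed the test but rests on few counts and on a gene that shares its exons with the readthrough RAB4B-EGLN2, so it is uncertain.

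**Figure D2:**
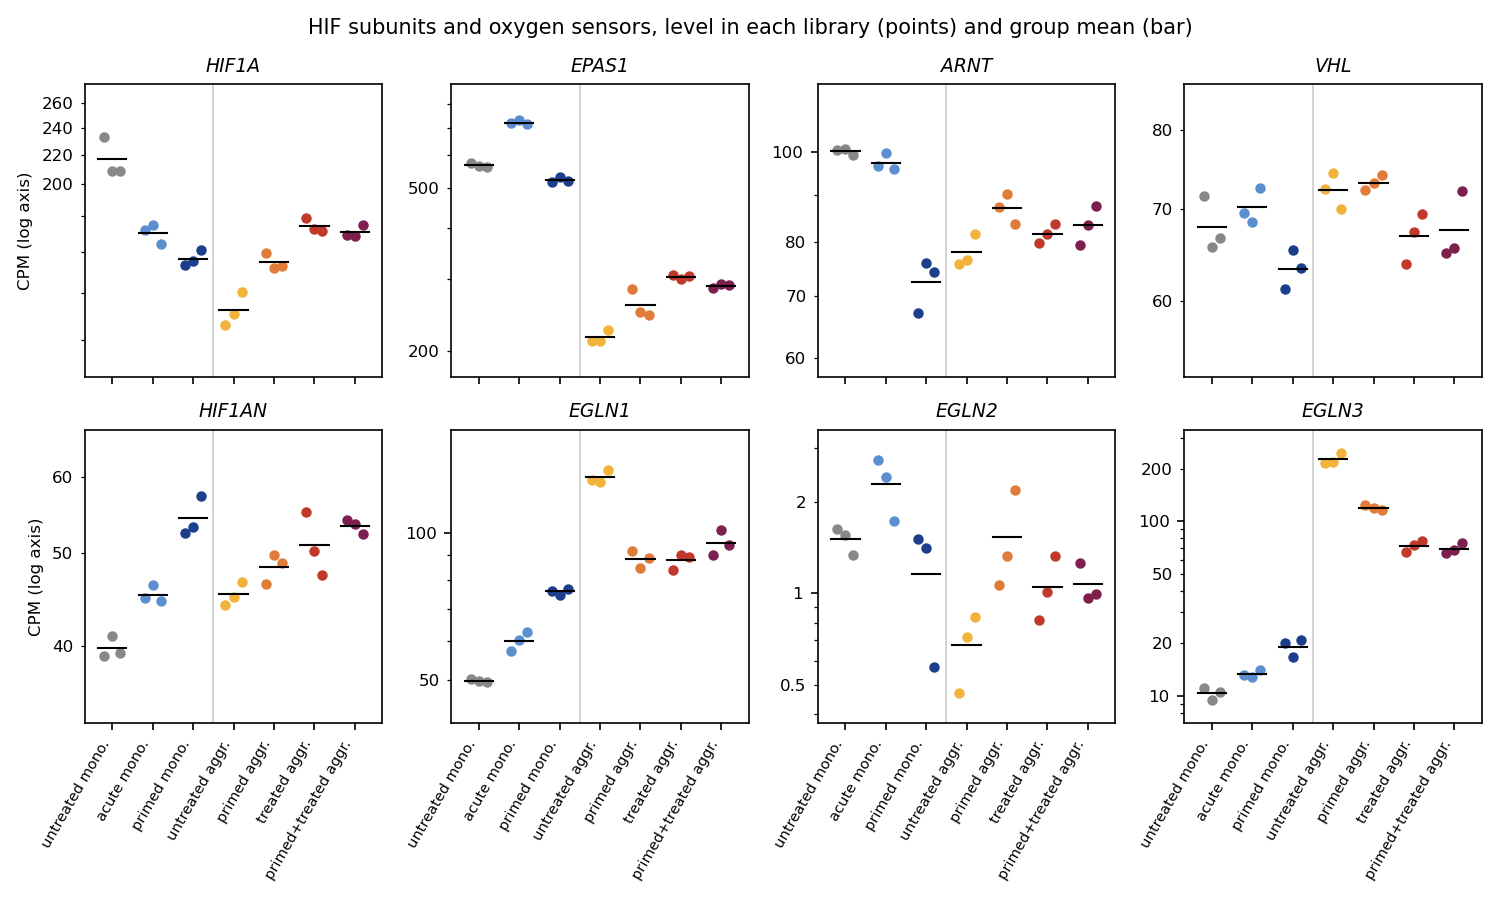
CPM on a log axis for the 3 HIF subunits and 5 oxygen sensing or degradation genes in every library (points, 3 per group), with a bar at the group mean. Monolayers are left of the grey line and aggregates right of it. EPAS1 is lower in all 12 aggregate libraries than in all 9 monolayer libraries, EGLN3 is higher in all of them, and VHL stays between 61.2 and 74.4 CPM.

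Among the secreted targets, ADM, the vasodilator peptide adrenomedullin, stood at 9.32, 8.7 and 9.52 CPM in untreated monolayers and 69.3, 82.7 and 76.9 CPM in untreated aggregates (log2 3.06 ± 0.14, edgeR adjusted p = 3.92e-15). VEGFA, the main growth factor of blood vessels, was at 172, 174 and 160.3 CPM and 398, 396 and 311 CPM. It rose by 1.13 ± 0.066, and the third aggregate library lay below the other two although well above the monolayers. LOX, which cross-links collagen, rose by 2.13 ± 0.29 from a level under 1 CPM. ANGPTL4, an inhibitor of lipoprotein lipase, was at 1.4, 0.663 and 0.462 CPM and 0.94, 0.817 and 0.892 CPM, and its groups overlapped (log2 0.11 ± 0.43, not called).

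Both carbonic anhydrases, which convert carbon dioxide at the cell surface and so set pH, rose. CA9 was at 1.12, 1.44 and 0.971 CPM in monolayers and 9.87, 13.1 and 11.2 CPM in aggregates (log2 3.25 ± 0.31, edgeR adjusted p = 3.26e-08). CA12 was at 44.3, 40.8 and 38.7 CPM and 83.6, 82.7 and 79 CPM (log2 0.99 ± 0.067). TMEM45A, a membrane protein, rose by 0.57 ± 0.14. All 4 genes of mitophagy and cell death rose, BNIP3 and BNIP3L, receptors that mark mitochondria for removal, by 0.91 ± 0.056 and 1.30 ± 0.068, the mitochondrial FAM162A by 0.58 ± 0.072 and DDIT4, an inhibitor of the growth kinase mTORC1, by 1.90 ± 0.10.

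All 4 collagen hydroxylase genes rose. P4HA1, a catalytic subunit of the collagen prolyl hydroxylase, was at 211, 201 and 207 CPM in monolayers and 1288, 1377 and 1348 CPM in aggregates (log2 2.70 ± 0.057, edgeR adjusted p = 1.17e-28). Its relative P4HA2 rose by 0.75 ± 0.075. The lysyl hydroxylases PLOD1 and PLOD2 changed less. PLOD1 was at 167, 163 and 167 CPM and 188, 182 and 195 CPM, a rise of 0.19 ± 0.059, and PLOD2 rose by 0.51 ± 0.082. Of the histone demethylases, KDM3A and KDM4B rose by 0.93 ± 0.068 and 0.59 ± 0.072, while KDM4C was at 36.2, 33.2 and 31.6 CPM and 31.9, 33.2 and 33.1 CPM and was not called (log2 -0.038 ± 0.074).

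The 5 transcription regulators all rose. BHLHE40, a basic helix-loop-helix repressor, was at 31, 28.2 and 29.9 CPM and 239, 255 and 259.7 CPM (log2 3.08 ± 0.067, edgeR adjusted p = 1.91e-28). CITED2, which competes with HIF for the coactivators CBP and p300, was at 116, 108 and 124 CPM and 319.6, 317 and 349 CPM (log2 1.51 ± 0.067). ZNF395, a zinc finger factor, was at 9.72, 11.2 and 10.5 CPM and 49.8, 51.3 and 47.3 CPM (log2 2.23 ± 0.086). MXI1, an antagonist of MYC, rose by 1.96 ± 0.068, and the nuclear receptor RORA by 1.30 ± 0.33 from below 1 CPM.

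The largest changes among the targets were in the last group. PPFIA4, a scaffold protein of the liprin family, was at 1.18, 1.01 and 0.971 CPM in monolayers and 43, 44.5 and 33.4 CPM in aggregates, 38.3-fold higher (log2 5.26 ± 0.17, edgeR adjusted p = 2.13e-23). ANKRD37, an ankyrin repeat protein, was at 0.618, 0.312 and 0.647 CPM and 11.8, 13.1 and 13.6 CPM (log2 4.63 ± 0.26, edgeR adjusted p = 5.9e-17). Both genes were low in monolayers, and no library of one group overlapped the other. ERO1A, an oxidase that helps form disulfide bonds in the endoplasmic reticulum, was at 87.6, 89.1 and 84.1 CPM and 526, 569 and 566 CPM (log2 2.67 ± 0.061). The stress gene NDRG1 rose by 2.95 ± 0.064. WSB1, a substrate receptor of a ubiquitin ligase, rose by 0.96 ± 0.10, from 251, 254 and 237 CPM to 554, 528 and 366 CPM, with the third aggregate library again the lowest.

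**Figure D3:**
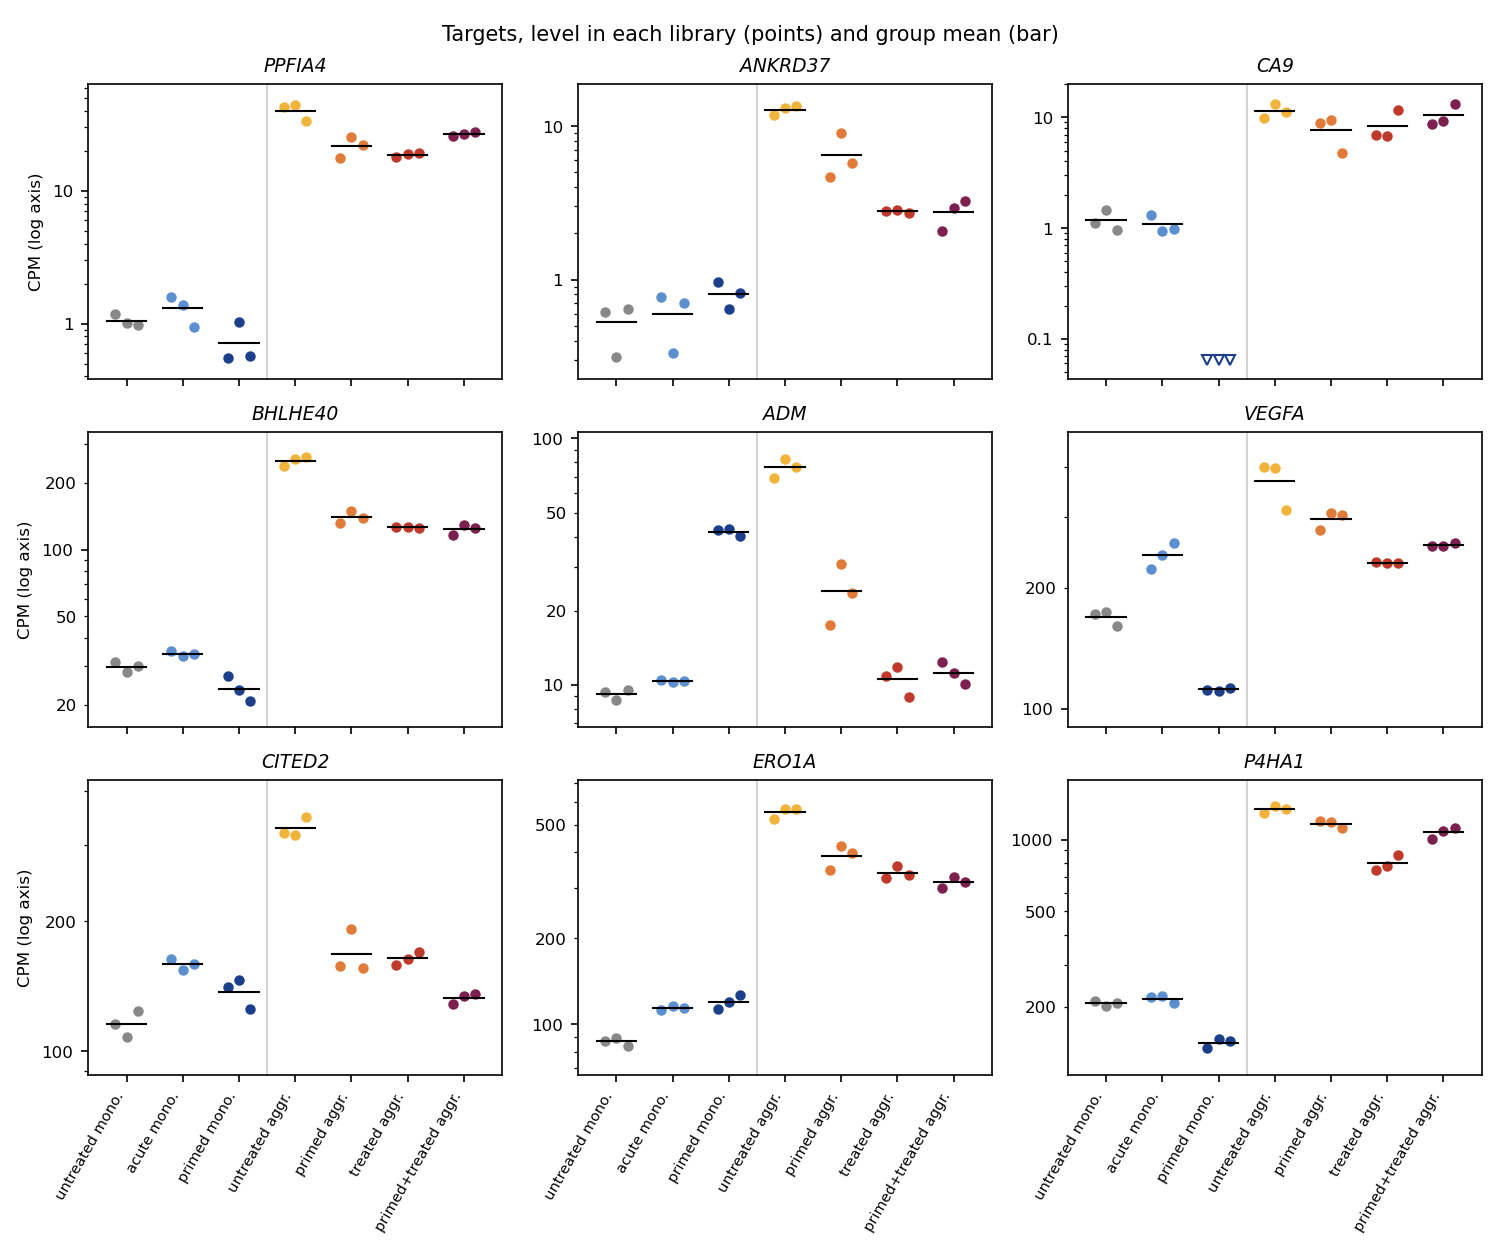
CPM on a log axis for 9 targets in every library (points, 3 per group), with a bar at the group mean. Open triangles mark the 3 primed monolayer libraries in which CA9 had no count, drawn at the floor of 0.0651 CPM that 3 counts over the group would give. All targets shown are high in untreated aggregates, and ADM stands at 8.97 to 12.4 CPM in both groups of treated aggregates, near the untreated monolayers.

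Aggregates and monolayers can be set side by side in 2 further comparisons that share no library with the first or with each other. Primed aggregates against acutely exposed monolayers, both from cells exposed for 24 h but taken 96 h after the exposure and at its end, had 25 members higher and 3 lower, against 30.4% and 28.6% of all genes. Primed and treated aggregates against primed monolayers, both among the 9 libraries without TYRP1 and POSTN, differed also by the second dose of 50 µg/ml and by 24 h of age. This comparison had 29 higher and 2 lower, against 31.9% and 32.1%. Aggregate culture cannot be told apart from these differences or from matrigel. The median log2 change over the members was 0.57 and 0.95 in these comparisons, against 0.033 and 0.019 over all genes. In all 3 comparisons 24 of the 36 members (66.7%) were higher, as were 14.9% of all genes. EPAS1 was the only member lower in all 3 (2.78% of members), as were 14.7% of all genes. Primed aggregates against acutely exposed monolayers had 25 members higher and 1 lower without the libraries with MYH7, the calls lost being ARNT (-0.15) and HIF1A (-0.15). The share of mitochondrial ribosomal RNA was 2.62 to 2.77% against 0.903 to 0.951% in that comparison and 2.13 to 2.36% against 0.793 to 0.812% in the last, and its part was not tested.

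The 3 comparisons differed in size for several genes. EGLN3 rose by 4.47 ± 0.082, 3.16 ± 0.079 and 1.87 ± 0.079 in the order just given, with 124, 119 and 115 CPM in primed aggregates, 65.4, 68.5 and 75.2 CPM in primed and treated aggregates, 13.2, 12.8 and 14 CPM in acutely exposed monolayers and 20.0, 16.7 and 20.7 CPM in primed monolayers. For EPAS1 the changes were -1.39 ± 0.05, -1.48 ± 0.049 and -0.85 ± 0.049. PPFIA4 rose by 5.26, 4.09 and 5.21, and P4HA1 by 2.70, 2.43 and 2.92. These 2 targets and MXI1 (1.96, 1.70 and 2.34) were high in every kind of aggregate.

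A few members did not keep their direction or call. ADM was higher in the first 2 comparisons (3.06 and 1.22) and lower in primed and treated aggregates than in primed monolayers (-1.91 ± 0.14), where its levels were 12.4, 11.1 and 10.1 CPM against 42.3, 43 and 40.3 CPM. CITED2, HIF1AN and EGLN2 were called in the first comparison alone, CITED2 being at 0.081 and -0.048 in the other two. EGLN2 was at -0.55 in the second, and at -0.93 and called without primed aggregate replicate 3. HIF1A and ARNT fell in the first 2 and rose in the last, HIF1A by 0.13 ± 0.051 and ARNT by 0.20 ± 0.055. TMEM45A and PLOD1 were called higher in the first and the last but not in the second, and KDM4C was called higher in the last alone. VHL and ANGPTL4 were called in none of the 3. Small calls that ended when 1 library was left out were those of HIF1A (-0.12 to -0.13 without acutely exposed monolayer replicate 1 or 2 or primed aggregate replicate 2 or 3), of ARNT (-0.13 without primed aggregate replicate 3), and in the last comparison of HIF1A (0.11 to 0.12 without primed and treated aggregate replicate 3 or primed monolayer replicate 1 or 2), of PLOD2 (0.18 to 0.21 without primed and treated aggregate replicate 2 or 3 or primed monolayer replicate 1) and of KDM4C (0.17 to 0.18 without primed and treated aggregate replicate 2 or primed monolayer replicate 1).

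**Figure D4:**
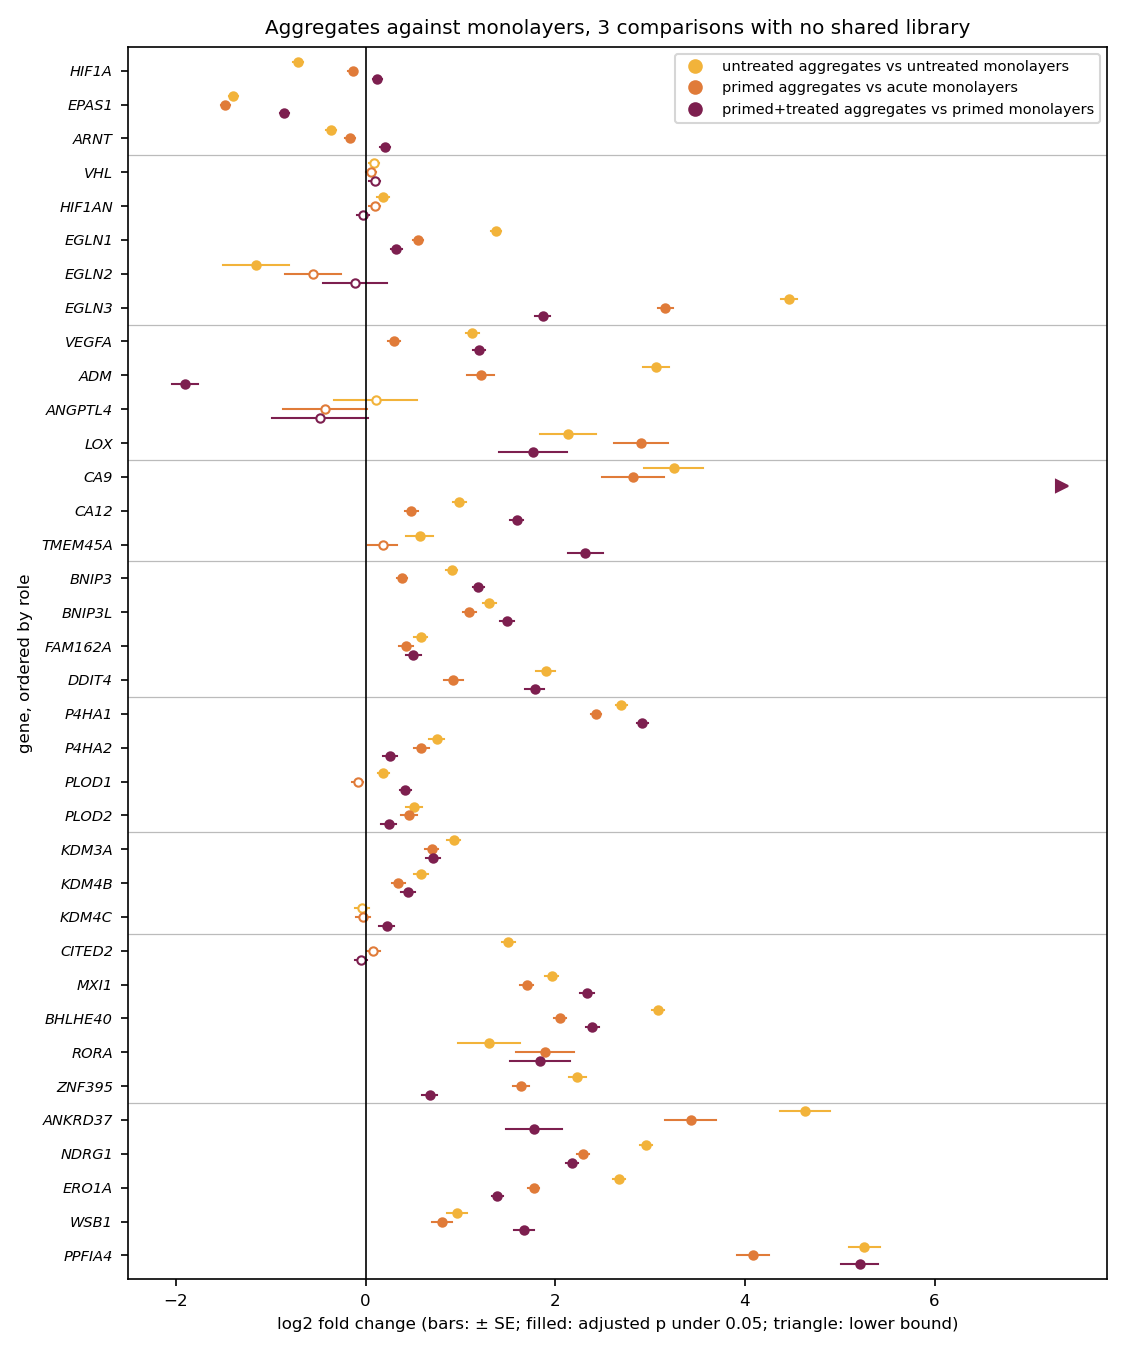
Log2 fold change of each gene between aggregates and monolayers in 3 comparisons with no shared library (yellow, untreated; orange, primed against acute; purple, primed and treated against primed), with bars of 1 SE. Filled points passed an adjusted p of 0.05, and the triangle for CA9 is a lower bound because primed monolayers had no count. Most targets lie to the right of 0 in all 3 colours, EPAS1 lies to the left, and ADM changes side.

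Whether exposed and untreated cells differed in the change from monolayer to aggregate was tested as the difference between the change from acutely exposed monolayers to primed aggregates and the change from untreated monolayers to untreated aggregates. All 4 groups are among the 12 libraries with TYRP1 and POSTN. Acutely exposed monolayers were taken at the end of the exposure and primed aggregates 96 h later, so fading of the acute response cannot be told apart from a smaller response to aggregate culture. Of the 5 melanocyte markers tested 3 were higher in this difference, and their part in it was not tested. The difference was called negative for 15 members and called positive for 1, against 8.25% and 6.85% of all genes. Its median was -0.27 over the members and 0.007 over all genes. Members that were not called reached values up to 0.77. The largest difference of a called gene was in ADM (-1.84 ± 0.20, edgeR adjusted p = 1.4e-06). CITED2 rose 2.84-fold in untreated cells and stood at 164, 155 and 159 CPM in acutely exposed monolayers and 158, 192 and 156 CPM in primed aggregates, a difference in response of -1.43 ± 0.094 (edgeR adjusted p = 3.93e-12). EGLN3 differed by -1.30 ± 0.12 and EGLN1 by -0.83 ± 0.077. BHLHE40 differed by -1.03 ± 0.092, ERO1A by -0.90 ± 0.083, VEGFA by -0.83 ± 0.092 and PPFIA4 by -1.17 ± 0.30. P4HA1, high in every kind of aggregate, differed by -0.27 ± 0.076. The 1 member called with the opposite sign was HIF1A (0.57 ± 0.073), whose fall in aggregates was smaller in exposed cells. Without the libraries with MYH7, the calls lost were PLOD1 (-0.39), PPFIA4 (-1.32), P4HA1 (-0.29), CA12 (-0.56) and ZNF395 (-0.36). Calls gained without 1 library were MXI1 (-0.32 to -0.33 without acutely exposed monolayer replicate 1 or untreated monolayer replicate 3), ANKRD37 (-1.42 to -1.51 without acutely exposed monolayer replicate 2 or untreated monolayer replicate 3 or primed aggregate replicate 2), TMEM45A (-0.60 without primed aggregate replicate 1), KDM4B (-0.32 without primed aggregate replicate 2), KDM3A (-0.29 without untreated aggregate replicate 1), ARNT (0.23 without untreated aggregate replicate 3) and WSB1 (-0.32 without untreated aggregate replicate 3). Thus 2 members were called positive without untreated aggregate replicate 3. The call of PLOD1 ended without 1 of several libraries: -0.22 to -0.26 without acutely exposed monolayer replicate 1 or 2 or untreated monolayer replicate 2 or primed aggregate replicate 3.

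Acute exposure of monolayers moved members of the pathway by small amounts. Of the 36 genes 13 rose and 3 fell, against 11.3% and 8.91% of all genes, with a median of 0.18 against -0.017 over all genes, and no log2 change of a called member exceeded 0.52. VEGFA was at 223, 241 and 258 CPM after exposure, above all untreated monolayers (log2 0.51 ± 0.066, edgeR adjusted p = 5.9e-07). ZNF395 was at 13.3, 16.9 and 14.7 CPM (log2 0.52 ± 0.094). CITED2 rose by 0.46 ± 0.067, ERO1A by 0.39 ± 0.06 to 112, 116 and 114 CPM and CA12 by 0.33 ± 0.068, CA12 to 52.4, 49.6 and 53.4 CPM. Of the subunits, EPAS1 rose by 0.35 ± 0.048 to 721, 731 and 715 CPM, HIF1A fell by 0.35 ± 0.051 on the log2 scale to 172, 175 and 164 CPM, and ARNT was at 96.7, 99.7 and 95.8 CPM (log2 -0.04 ± 0.053, not called). EGLN1 was at 57.3, 60.5 and 62.7 CPM and EGLN3 rose by 0.38 ± 0.097. HIF1AN was at 44.9, 46.3 and 44.5 CPM, VHL at 69.6, 68.5 and 72.6 CPM and EGLN2 at 2.75, 2.42 and 1.73 CPM. The other 2 members that fell were FAM162A (-0.28 ± 0.074) and PLOD2 (-0.31 ± 0.083).

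Most targets that were high in aggregates did not pass the test after acute exposure. PPFIA4 was at 1.59, 1.37 and 0.946 CPM, ANKRD37 at 0.769, 0.332 and 0.699 CPM, CA9 at 1.32, 0.948 and 0.987 CPM and ADM at 10.4, 10.2 and 10.4 CPM, none of them called. P4HA1 was at 219, 221 and 208 CPM, PLOD1 at 164, 156 and 142 CPM, KDM4C at 35.3, 36.8 and 38.6 CPM and ANGPTL4 at 1.21, 1.09 and 0.535 CPM. BHLHE40 was at 34.8, 33.3 and 33.7 CPM and passed narrowly (log2 0.19 ± 0.07). Without the 6 libraries with MYH7, which leaves 1 library in each of these groups, 6 members rose and none fell, where each lone sample is taken to vary like the other groups. The calls lost were EGLN1 (0.21), HIF1AN (0.19), BNIP3 (0.21), EGLN3 (0.34), HIF1A (-0.28), BHLHE40 (0.22), FAM162A (-0.25), PLOD2 (-0.31), ZNF395 (0.35) and NDRG1 (0.092). The number that rose was 8 without untreated monolayer replicate 1, and the call gained without 1 library was MXI1 (0.24 to 0.26 without acutely exposed monolayer replicate 1 or untreated monolayer replicate 3). Calls that ended without 1 library were HIF1AN (0.17 to 0.19 without acutely exposed monolayer replicate 1 or 2 or 3 or untreated monolayer replicate 1 or 3), BNIP3 (0.17 to 0.18 without acutely exposed monolayer replicate 1 or 2 or untreated monolayer replicate 1 or 3), WSB1 (0.27 to 0.32 without acutely exposed monolayer replicate 1 or 2 or 3 or untreated monolayer replicate 1 or 2 or 3), BHLHE40 (0.15 to 0.22 without acutely exposed monolayer replicate 1 or 2 or 3 or untreated monolayer replicate 1 or 2 or 3) and NDRG1 (0.16 without acutely exposed monolayer replicate 3 or untreated monolayer replicate 1).

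Primed monolayers, 96 h after the same exposure, were compared with untreated monolayers, for which the labels give no incubation time. The comparison crosses the 12 and the 9 libraries. The exposure therefore cannot be told apart from that split or from the 96 h of further culture. The comparison had 8 members higher and 18 lower, against 33.7% and 31.6% of all genes. Its median was -0.36 against 0.009 over all genes. Without the libraries with MYH7, 7 rose and 15 fell, and the calls lost were CA12 (-0.24), EPAS1 (-0.11), CITED2 (0.15) and KDM4C (-0.11). CA9 had no count in any of the 3 primed monolayer libraries. Taken against a floor of 3 counts over the group (0.0651 CPM, counting error only), it was at least 18.4-fold lower than in untreated monolayers. ADM moved the other way, to 42.3, 43 and 40.3 CPM from 9.32, 8.7 and 9.52 CPM (log2 2.19 ± 0.14, edgeR adjusted p = 3.3e-12). TMEM45A fell by 2.15 ± 0.19, DDIT4 by 0.99 ± 0.10 and VEGFA by 0.60 ± 0.068 on the log2 scale, VEGFA to 112, 110.5 and 113 CPM. P4HA1 was at 134, 146 and 144 CPM, CA12 at 33, 33.6 and 32.1 CPM, BHLHE40 at 27, 23.2 and 20.7 CPM and PLOD1 at 135, 127 and 114 CPM, each below untreated monolayers. ZNF395, at 26.2, 23.6 and 26.9 CPM, rose by 1.28 ± 0.092, ERO1A was at 113, 119.8 and 126 CPM and rose by 0.46 ± 0.061, and CITED2 was at 141, 146 and 125 CPM.

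All 3 HIF subunits were called lower in primed monolayers, HIF1A at 153, 155 and 161 CPM (-0.47 ± 0.051), EPAS1 at 516, 531 and 519 CPM (-0.12 ± 0.048) and ARNT at 67.2, 76 and 74.2 CPM (-0.47 ± 0.055). Of the 5 sensors 3 rose. EGLN1 was at 76.2, 74.8 and 76.7 CPM (0.61 ± 0.056), EGLN3 rose by 0.90 ± 0.096 and HIF1AN was at 52.5, 53.2 and 57.2 CPM (0.45 ± 0.062). VHL was at 61.2, 65.4 and 63.4 CPM and EGLN2 at 1.51, 1.41 and 0.569 CPM, neither called. PPFIA4 at 0.548, 1.02 and 0.569 CPM, ANKRD37 at 0.959, 0.639 and 0.822 CPM and ANGPTL4 at 0.411, 0.639 and 0.759 CPM were not called either. Primed monolayers were the group with the lowest mean for 20 of the 36 genes. How many of all genes were lowest in that group was not counted, so this cannot be called particular to the members. Calls that ended without 1 library were EPAS1 (-0.11 to -0.12 without untreated monolayer replicate 1 or 2 or primed monolayer replicate 1 or 3) and KDM4C (-0.15 to -0.19 without untreated monolayer replicate 1 or primed monolayer replicate 1 or 3), KDM4C being at 27.1, 31.7 and 28.9 CPM.

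The trace left by an exposure before aggregation was read from primed against untreated aggregates, within the 12 libraries. The targets were mostly lower: 20 members fell and 5 rose, against 9.66% and 11.5% of all genes, with a median of -0.33 against 0 over all genes. Summed melanocyte markers were 53.4 to 91.3 CPM in primed and 16.2 to 22.2 CPM in untreated aggregates (3 of the 5 tested were called higher), and summed muscle markers 147 to 151 CPM and 207 to 236 CPM, and their part in the result was not tested. ADM fell furthest, from 69.3, 82.7 and 76.9 CPM to 17.5, 31 and 23.6 CPM (log2 -1.66 ± 0.12, edgeR adjusted p = 2.08e-09). ANKRD37 was at 4.67, 9.04 and 5.77 CPM (-0.98 ± 0.19), CITED2 fell by 0.97 ± 0.066, DDIT4 by 0.92 ± 0.097, PPFIA4 by 0.88 ± 0.11 to 17.7, 25.5 and 22.2 CPM and BHLHE40 by 0.84 ± 0.059 to 132, 149.7 and 139 CPM. ERO1A was at 349, 422 and 397 CPM (-0.51 ± 0.057) and P4HA1 at 1192, 1179.6 and 1119.8 CPM (-0.20 ± 0.053). All 4 genes of mitophagy and cell death and all 4 collagen hydroxylases fell, PLOD1 to 149, 149 and 138 CPM. CA9 at 8.82, 9.37 and 4.77 CPM, CA12 at 81.5, 66.5 and 69.4 CPM, ZNF395 at 43.6, 50.0 and 46.7 CPM, KDM4C at 33.4, 37 and 38.5 CPM and ANGPTL4 at 1.06, 0.606 and 0.429 CPM were not called. CA12 (-0.18 ± 0.065, edgeR adjusted p = 0.0512) lay at the threshold and was called lower with RLE size factors, no filter, the 10 CPM filter and limma voom, while CA9 (-0.59 ± 0.24) was called with limma voom (-0.67). Calls gained without 1 library were CA12 (-0.20 to -0.27 without primed aggregate replicate 1 or untreated aggregate replicate 3) and RORA (0.92 without untreated aggregate replicate 3).

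The subunits went the other way. HIF1A was at 159.7, 152 and 153 CPM in primed aggregates (0.23 ± 0.052), EPAS1 at 284, 249.5 and 245 CPM (0.26 ± 0.049) and ARNT at 87.3, 90.1 and 83.7 CPM (0.16 ± 0.055), each higher than in untreated aggregates. EGLN1 fell to 91.5, 84.7 and 88.6 CPM (-0.55 ± 0.053) and EGLN3 by 0.93 ± 0.065 on the log2 scale. VHL was at 72.3, 73.2 and 74.2 CPM and HIF1AN at 46.4, 49.7 and 48.8 CPM, neither called. EGLN2 rose to 1.06, 1.32 and 2.19 CPM (1.20 ± 0.35) on few counts, and LOX rose by 0.70 ± 0.24. VEGFA fell to 278, 307 and 303 CPM (-0.32 ± 0.065), but without the libraries with MYH7, which leaves replicate 3, the lowest, as the only untreated aggregate library, it was at -0.074 and not called, and WSB1 was called higher at 0.54. In that setting 16 members fell and 1 rose, and the other calls lost were ARNT (0.09), P4HA1 (-0.21), HIF1A (0.14), EGLN2 (0.89), EPAS1 (0.20), KDM3A (-0.23), LOX (0.96) and P4HA2 (-0.28). The number that rose was 3 without primed aggregate replicate 1 or 2 and 2 without untreated aggregate replicate 1. Calls that ended without 1 library were ARNT (0.13 to 0.15 without primed aggregate replicate 1 or 2 or untreated aggregate replicate 1 or 2), EGLN2 (0.82 to 1.0 without primed aggregate replicate 3 or untreated aggregate replicate 1), LOX (0.55 to 0.68 without primed aggregate replicate 1 or 2 or untreated aggregate replicate 1 or 3), BNIP3L (-0.17 to -0.21 without primed aggregate replicate 2 or 3 or untreated aggregate replicate 3) and KDM3A (-0.11 to -0.17 without primed aggregate replicate 1 or untreated aggregate replicate 2 or 3).

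Treated aggregates were compared with untreated aggregates to see the effect of 50 µg/ml on formed aggregates. The comparison shares its untreated aggregates with the previous one, crosses the 12 and the 9 libraries and spans 24 h of age, and the dose cannot be told apart from these. It had 21 members lower and 3 higher, against 17.9% and 18.8% of all genes, with a median of -0.50 against 0.001 over all genes. Mitochondrial ribosomal RNA was 1.52 to 1.71% of counts in treated and 2.5 to 2.75% in untreated aggregates, and its part was not tested. Again ADM fell furthest, to 10.8, 11.8 and 8.97 CPM, which is close to the level of untreated monolayers (log2 -2.86 ± 0.13, edgeR adjusted p = 1.87e-13). ANKRD37 was at 2.79, 2.84 and 2.73 CPM (-2.20 ± 0.20), EGLN3 at 66.5, 72.9 and 77.3 CPM (-1.65 ± 0.066) and DDIT4 fell by 1.31 ± 0.098 on the log2 scale. PPFIA4 at 17.9, 19 and 19.4 CPM, BHLHE40 at 126, 126 and 125 CPM, CITED2 at 159, 164 and 169.8 CPM, ERO1A at 327, 358 and 334 CPM, P4HA1 at 749, 771 and 863 CPM, VEGFA at 232, 230.1 and 231 CPM and ZNF395 at 35.3, 32.4 and 37.7 CPM were all called lower. KDM3A fell by 0.93 ± 0.067 and NDRG1 by 0.95 ± 0.06. CA9 at 6.88, 6.74 and 11.6 CPM, CA12 at 79.3, 81 and 89.5 CPM, PLOD1 at 169.9, 172 and 192 CPM and KDM4C at 33.8, 30.2 and 30.6 CPM were not called.

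The 3 members that rose were HIF1A, at 179, 173 and 171 CPM (0.40 ± 0.052), EPAS1, at 307, 299.8 and 304 CPM (0.49 ± 0.049), and HIF1AN, at 55.1, 50.2 and 47.4 CPM (0.17 ± 0.061). ARNT was at 79.8, 81.6 and 83.6 CPM, VHL at 63.9, 67.3 and 69.5 CPM and EGLN2 at 0.817, 1.01 and 1.32 CPM, none called, and EGLN1 fell to 84.1, 90.2 and 89.2 CPM (-0.56 ± 0.052). ANGPTL4, at 0.129, 0.55 and 0.47 CPM, passed narrowly (-1.20 ± 0.48). Calls that ended without 1 library were HIF1AN (0.10 to 0.16 without treated aggregate replicate 1 or untreated aggregate replicate 1 or 2), ANGPTL4 (-0.79 to -1.38 without treated aggregate replicate 1 or 3 or untreated aggregate replicate 1 or 2 or 3) and LOX (-0.60 to -0.63 without treated aggregate replicate 1 or untreated aggregate replicate 2). Calls gained without 1 library were CA9 (-0.74 without treated aggregate replicate 3), RORA (0.82 without untreated aggregate replicate 3) and WSB1 (-0.24 without untreated aggregate replicate 3), with CA9 at -0.44 with all libraries. Without the libraries with MYH7, 19 members fell and 3 rose, the calls lost were HIF1AN (0.12), ANGPTL4 (-1.22) and LOX (-0.51), and WSB1 was called higher at 0.33 against -0.072 with all libraries.

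Primed and treated aggregates were first set against primed aggregates, which again crosses the 2 sets of libraries and 24 h of age. There were 12 members lower and 7 higher, against 14.8% and 14.9% of all genes, with a median of -0.11 against -0.002 over all genes. LOX fell by 1.64 ± 0.24, ANKRD37 by 1.23 ± 0.21, ADM by 1.11 ± 0.14, EGLN3 by 0.78 ± 0.067 and KDM3A by 0.59 ± 0.067 on the log2 scale, with ANKRD37 at 2.06, 2.94 and 3.24 CPM. CA12 rose by 0.46 ± 0.064 to 96.1, 98.2 and 104 CPM, P4HA2 by 0.26 ± 0.073 and BNIP3 by 0.21 ± 0.055. Calls gained without 1 library were PLOD2 (0.23 to 0.28 without primed and treated aggregate replicate 1 or primed aggregate replicate 1), VHL (-0.17 without primed and treated aggregate replicate 3), BNIP3L (-0.19 without primed and treated aggregate replicate 3 or primed aggregate replicate 3) and TMEM45A (0.40 without primed aggregate replicate 1). The number that rose was 4 without primed and treated aggregate replicate 2 and 3 without primed aggregate replicate 3. Small calls that ended without 1 library were HIF1A (0.13 to 0.15 without primed and treated aggregate replicate 1 or 2 or 3 or primed aggregate replicate 2 or 3), EPAS1 (0.12 to 0.15 without primed and treated aggregate replicate 2 or primed aggregate replicate 2 or 3), VEGFA (-0.19 without primed aggregate replicate 2 or 3), PPFIA4 (0.17 to 0.32 without primed and treated aggregate replicate 1 or 2 or 3 or primed aggregate replicate 1 or 3), PLOD1 (0.17 without primed aggregate replicate 3), BHLHE40 (-0.14 without primed and treated aggregate replicate 1 or primed aggregate replicate 2), FAM162A (-0.20 to -0.21 without primed and treated aggregate replicate 1 or primed aggregate replicate 2) and ZNF395 (-0.15 to -0.22 without primed and treated aggregate replicate 1 or 2 or 3 or primed aggregate replicate 2 or 3).

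Against treated aggregates, a comparison within the 9 libraries at equal age, 5 members were higher and 1 lower, against 3.18% and 4.8% of all genes, with a median of 0.10 against 0.001 over all genes. Mitochondrial ribosomal RNA was 2.13 to 2.36% of counts in primed and treated and 1.52 to 1.71% in treated aggregates, and the summed muscle and endothelium markers were likewise higher in all 3 primed and treated libraries. The part of these in the result was not tested. PPFIA4 rose from 17.9, 19 and 19.4 CPM to 25.9, 26.8 and 27.6 CPM (log2 0.51 ± 0.11, edgeR adjusted p = 0.00218). P4HA1 went to 1007, 1088 and 1115 CPM (0.43 ± 0.053, edgeR adjusted p = 1.17e-06), MXI1 rose by 0.34 ± 0.061, BNIP3 by 0.31 ± 0.055 and CA12 by 0.25 ± 0.063. CITED2 fell to 128, 135 and 136 CPM (-0.30 ± 0.066). In these 6 genes the 3 libraries of one group lay wholly on one side of the other. The 6 were picked by the test on the same libraries, so this separation adds no support. Its share over all genes was not counted. The call of CA12 ended at 0.22 without treated aggregate replicate 1, and that of ZNF395 (0.27 without treated aggregate replicate 3) was gained.

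The remaining members were not called between these 2 treated groups. In primed and treated aggregates HIF1A was at 169, 168 and 175 CPM, EPAS1 at 285, 292 and 289 CPM, ARNT at 79.5, 83.5 and 87.6 CPM, VHL at 65, 65.5 and 72.3 CPM, HIF1AN at 54, 53.6 and 52.3 CPM, EGLN1 at 90.1, 101 and 94.1 CPM and EGLN2 at 1.26, 0.966 and 0.994 CPM. VEGFA was at 254, 254 and 258 CPM, CA9 at 8.75, 9.33 and 13.3 CPM, BHLHE40 at 116, 129.6 and 125 CPM, ERO1A at 300.3, 328 and 315 CPM and ZNF395 at 42.2, 39.5 and 40.9 CPM. PLOD1 stood at 165, 167 and 172 CPM, KDM4C at 32.9, 35.8 and 33.6 CPM and ANGPTL4 at 0.269, 0.462 and 0.552 CPM. Against primed monolayers, where it had no count, CA9 was at least 163-fold higher in this group.

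**Figure D5:**
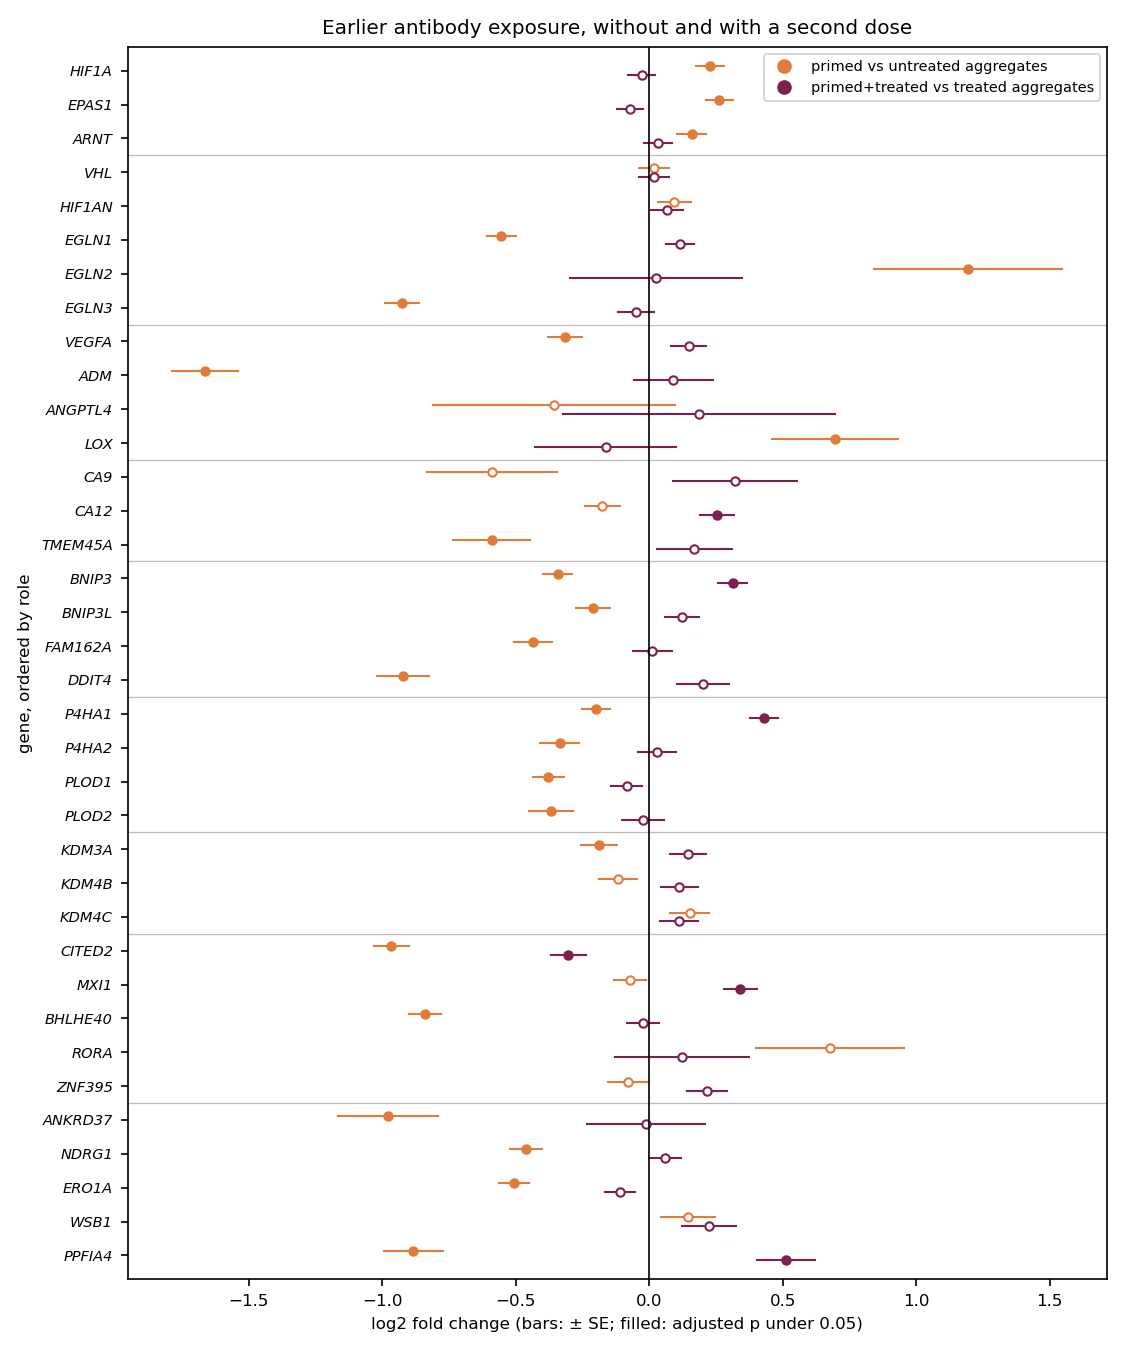
Log2 fold change of each gene with earlier exposure, in aggregates without a second dose (orange) and with one (purple), with bars of 1 SE. Filled points passed an adjusted p of 0.05. Orange points lie left of 0 for 20 called members and purple points stay near 0, with 6 called.

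Whether the priming effect differed with the second dose was tested as the difference between these 2 priming comparisons, each of which lies within 1 set of libraries. The second dose cannot be told apart from the set of libraries or from the 24 h of age. Of the 36 members 22 were called higher and 2 called lower in that difference, against 5.05% and 7.42% of all genes. The median was 0.40 against 0.002 over all genes. ADM, which was lower in primed aggregates by 1.66 ± 0.12 on the log2 scale without a second dose and stood at 0.089 with one, differed by 1.75 ± 0.19 (edgeR adjusted p = 1.55e-06). PPFIA4, which fell in one setting and rose in the other, differed by 1.40 ± 0.15 (edgeR adjusted p = 1.35e-07). DDIT4 differed by 1.12 ± 0.14, EGLN3 by 0.88 ± 0.093, BHLHE40 by 0.82 ± 0.084, EGLN1 by 0.67 ± 0.074, CITED2 by 0.66 ± 0.093, BNIP3 by 0.66 ± 0.078 and P4HA1 by 0.63 ± 0.075. Priming responses of VEGFA differed by 0.46 ± 0.092, a call that ended without the libraries with MYH7 (0.22, adjusted p 0.0827). The 2 genes called with the opposite sign were the alpha subunits, EPAS1 (-0.34 ± 0.069) and HIF1A (-0.25 ± 0.073). Members that were not called reached values down to -1.17. Without the libraries with MYH7 there were 19 higher and 1 lower, the other calls lost were HIF1A (-0.17), EPAS1 (-0.27), PLOD2 (0.41) and P4HA2 (0.32), and WSB1 turned from 0.081 to -0.32. Calls gained without 1 library were ZNF395 (0.34 to 0.35 without treated aggregate replicate 3 or primed aggregate replicate 2 or untreated aggregate replicate 3), CA9 (1.21 without treated aggregate replicate 3), KDM4B (0.32 without primed aggregate replicate 2) and WSB1 (0.25 without untreated aggregate replicate 3). Calls that ended without 1 library were HIF1A (-0.21 to -0.24 without primed and treated aggregate replicate 2 or treated aggregate replicate 1 or untreated aggregate replicate 1), PLOD1 (0.27 without treated aggregate replicate 1), PLOD2 (0.27 to 0.37 without primed and treated aggregate replicate 2 or 3 or treated aggregate replicate 1 or 2 or 3 or primed aggregate replicate 2 or 3 or untreated aggregate replicate 2 or 3), ANKRD37 (0.79 to 0.93 without primed and treated aggregate replicate 2 or 3 or primed aggregate replicate 1 or 3), KDM3A (0.28 to 0.30 without primed and treated aggregate replicate 2 or treated aggregate replicate 3) and P4HA2 (0.31 to 0.32 without primed and treated aggregate replicate 2 or untreated aggregate replicate 2).

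Across all 7 groups, untreated aggregates had the highest mean for 24 of the 36 genes. The share of all genes highest in that group was not counted, so the count cannot be called particular to the members. Among the regulators, HIF1A and ARNT were highest in untreated monolayers and EPAS1 in acutely exposed monolayers.

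Other genes of the pathway were followed in 3 further lists. Of 14 genes of the VHL ligase, the coactivators and HIF stability, 9 rose and 3 fell in untreated aggregates against untreated monolayers, with a median of 0.23. Of all genes 32.9% rose and 31.1% fell there. In primed aggregates against acutely exposed monolayers 7 were higher and 3 lower, against 30.4% and 28.6% of all genes. In primed and treated aggregates against primed monolayers 3 were higher and 7 lower (median -0.12), against 31.9% and 32.1%. In untreated aggregates ARNT2, a relative of ARNT, rose by 2.06 ± 0.21, LIMD1, a scaffold that helps degrade HIF1A, by 0.65 ± 0.053, and HSP90AB1, a chaperone of the alpha subunit, fell by 0.65 ± 0.045. Of the 20 glycolytic HIF targets 19 rose and none fell in untreated aggregates, with a median of 1.10, against 32.9% and 31.1% of all genes. ALDOC and ALDOA, 2 aldolases, rose by 2.50 ± 0.057 and 1.51 ± 0.06, and the phosphofructokinase PFKP by 1.48 ± 0.06. In primed aggregates 17 of the 20 fell against 9.66% of all genes, and in treated aggregates, across the 2 sets of libraries, 17 fell against 17.9%. Both comparisons share the untreated aggregates. The difference of the aggregate response was called negative for 15 of 20, against 8.25% of all genes. The priming difference was called positive for 12, against 5.05%. Of 30 further hypoxia targets 15 rose and 7 fell in untreated aggregates, with a median of 0.23, against 32.9% and 31.1% of all genes. Primed aggregates against acutely exposed monolayers had 16 of the 30 higher and 8 lower, against 30.4% and 28.6% of all genes. Primed and treated aggregates against primed monolayers had 14 higher and 12 lower, against 31.9% and 32.1%. The 3 with the smallest p in untreated aggregates all rose: the lipoprotein receptor VLDLR rose by 3.08 ± 0.086, the creatine transporter SLC6A8 by 2.14 ± 0.064 and the phosphoglucomutase PGM1 by 0.80 ± 0.053. HIF3A and MIF were not analysed here, and FLT1 had too few counts to be tested.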

How the data were processed

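The authors deposited whole-number read counts per gene, untransformed, for 21 libraries, in 7 groups of 3 taken from the sample labels. Per the submitters' processing notes featureCounts and limma were used with hg38, and the strand setting and aligner are not given in the sources used here. The counts were tested with edgeR 4.0.16 in R 4.3.3: its default low-count filter removed 584 genes (0.0116% of counts), 15969 genes were scaled by TMM, and 1 quasi-likelihood model with a mean for each of 7 groups (14 residual degrees of freedom, robust) gave every comparison. P-values were adjusted by Benjamini-Hochberg over all genes tested. The biological coefficient of variation was 5.98%. Replicate pairs differed beyond sampling noise (chi-square per degree of freedom 2.4 to 10.7 in 21 pairs). Total counts were 15005070 to 26921113 per library. Floors cover counting error only. The members, lists and tests were chosen with earlier results of these data known. Named with every library's value were the subunits, the sensors, the 5 targets with the largest and the 3 with the smallest change in untreated aggregates, targets past 0.5 on the log2 scale after acute exposure, up to 6 targets by p in the differences of responses, and VEGFA, CA9 and CA12. Alternatives were DESeq2 1.42.0, limma voom 3.58.1, other size factors and filters, a replicate block, only the compared groups, leaving out each library and leaving out the 6 with MYH7. On simulated counts for untreated aggregates against untreated monolayers (14972 genes), 97% of 2-fold and 90% of 1.5-fold changes were recovered and 2.6% of calls were false. The simulation held 3 groups, gave every gene the same spread and changed few genes, none with very low counts. The real spread differs between genes and many more genes were called, so these rates are not error rates of the results above. Promoters were matched by symbol to RefSeq sequences of GRCh38.p14.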

Additional observations from a re-analysis of the deposited data

Results flagged for a closer look

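Differences between 2 groups' responses, each tested with edgeR over all genes and past an adjusted p of 0.05, are collected here. The first set compares the log2 change from monolayers to aggregates in exposed and in untreated cells, exposed minus untreated. In all, 16 of 36 members were called, 15 lower and 1 higher, against 8.25% and 6.85% of all genes. They were HIF1A (0.574), EGLN1 (-0.827), EGLN3 (-1.304), VEGFA (-0.827), ADM (-1.841), CA12 (-0.507), BNIP3 (-0.524) and DDIT4 (-0.974), followed by P4HA1 (-0.265), PLOD1 (-0.268), CITED2 (-1.425), BHLHE40 (-1.034), ZNF395 (-0.597), NDRG1 (-0.663), ERO1A (-0.897) and PPFIA4 (-1.17). HIF1A is the only positive value among them. Untreated aggregate replicate 3 lay apart from the other 2 for VEGFA, PPFIA4 and WSB1.

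The second set compares the log2 change with priming in aggregates with and without a second dose, treated minus untreated. In all, 24 of 36 members were called, 22 higher and 2 lower, against 5.05% and 7.42% of all genes. Those of the regulators and the first targets were HIF1A (-0.254), EPAS1 (-0.336), EGLN1 (0.67), EGLN3 (0.876), VEGFA (0.463), ADM (1.752), CA12 (0.43) and TMEM45A (0.76). Next came BNIP3 (0.655), BNIP3L (0.335), FAM162A (0.447), DDIT4 (1.125), P4HA1 (0.631), P4HA2 (0.366), PLOD1 (0.294) and PLOD2 (0.345), and last KDM3A (0.334), CITED2 (0.662), MXI1 (0.412), BHLHE40 (0.816), ANKRD37 (0.966), NDRG1 (0.523), ERO1A (0.396) and PPFIA4 (1.395). HIF1A and EPAS1 carry the only negative values among them. The second dose falls together with the split of the libraries by TYRP1, POSTN and SNAP25 and with 24 h of age, and these cannot be told apart.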

How the results depend on the processing

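In the comparison of untreated aggregates with untreated monolayers 29 members rose and 4 fell whichever single library was left out. Without the 6 libraries with MYH7, 41 results lost their call, 1 gained one, 2 changed direction and 244 kept their side of the threshold, and the cause was not tested beyond the smaller number of libraries. WSB1 was then at 0.325 in treated against untreated aggregates and at -0.316 in the difference of the priming response (-0.07 and 0.08 with all libraries). In the same setting 1 member fell in primed aggregates against acutely exposed monolayers, 6 rose and 0 fell after acute exposure, 1 rose in primed against untreated aggregates and 1 was lower in the difference of the priming response. With genes averaging 10 CPM or more, 3 members rose in primed against untreated aggregates and 2 were higher in the difference of the aggregate response, where fewer genes were tested. With only the compared groups fitted, 9 members rose in primed and treated against treated aggregates. Leaving out 1 library at a time gave 8 to 11 members higher after acute exposure, 2 to 5 higher in primed against untreated aggregates, 3 to 8 higher in primed and treated against primed aggregates, 1 to 2 higher in the difference of the aggregate response and 1 to 2 lower in that of the priming response. Calls were gained or lost in 3 and 2 results with DESeq2, 6 and 2 with limma voom, 2 and 2 with RLE size factors, 1 and 2 with no filter and 2 and 5 with the replicate block, among them those of WSB1, BHLHE40 and MXI1 after acute exposure, PLOD2 in the priming difference and ANGPTL4 in treated aggregates. Most same-numbered libraries did not deviate together (correlation of deviations -0.148 to 0.184, 2 of 63 over 0.1). The 2 over 0.1 were both between untreated monolayers and untreated aggregates, replicate 2 (0.139) and replicate 3 (0.184), with 0.0693 for replicate 1. MYH7 exceeded 1 CPM in replicates 1 and 2 of both groups. Some pairing of these 2 groups thus remains possible. With the replicate block 12 members rose after acute exposure and 29 in untreated aggregates. EGLN2, ANGPTL4, RORA, LOX and ANKRD37 rest on few counts, so small changes in them were not detectable at this depth.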
